A study of Homo sapiens with 6 samples.

Results

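The chemokine genes CXCL1, CXCL2, CXCL3, CXCL8, CXCL12, CXCL16, CX3CL1 and CCL2 and the adhesion receptor gene ICAM1 were followed in ARPE-19, a long-used human cell line from the retinal pigment epithelium. They were chosen by symbol: a locus of the deposited table was taken if it held an annotated transcript and the symbol, and each of the 9 genes had 1 such locus among the 60798 nuclear loci of the table. The first group was kept for 72 h in high glucose medium (3 libraries) and the other for 72 h in normal glucose medium (3 libraries). All 6 libraries came from the same wild-type line. Neither glucose concentration is in the labels. Whether the 3 libraries of each group were grown as separate cultures is not said either, and the p-values therefore reflect spread among libraries that may be purely technical.

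Chemokines are small secreted proteins that guide leukocytes along a gradient by binding G protein-coupled receptors. CXCL1, CXCL2, CXCL3 and CXCL8 carry the ELR motif, act on CXCR2 (CXCL8 also on CXCR1) and attract neutrophils, and CCL2 acts on CCR2 and attracts monocytes. CXCL12 keeps CXCR4-bearing cells in place, and CXCL16 and CX3CL1 are made as membrane proteins whose chemokine heads can be shed. ICAM1 on the cell surface is gripped by the leukocyte integrins LFA-1 and Mac-1. Retinal pigment epithelium forms the outer blood-retinal barrier, and it is known to release CXCL8 and CCL2 and to display ICAM1 when exposed to IL-1 or TNF.

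The libraries held 81616741 to 87748820 counts. Normal glucose 3 stood apart from the others: the first principal component (49.7% of the variance) placed it at 49.9, against -79.2 to -84.1 for the high glucose libraries and 88.4 and 105.8 for normal glucose 1 and 2, and the second (18%) set it at 107.1, against -44.1 to -6.61 for the rest. TXNIP, which glucose induces, averaged 35.9 ± 3.34 CPM in high glucose and 1.09 ± 0.831 CPM in normal glucose (SD, n = 3 each). CPM here are counts scaled to library size after TMM normalization. Of 12 pigment epithelium markers, 3 (RPE65, TTR and TYR) stayed under 1 CPM in every library, while OTX2 held 40.2 to 45.6 CPM in high glucose and 31.3 to 53.0 CPM in normal glucose. The 11 markers with a locus of their own summed to 2198 to 2328 CPM in high glucose and 589.3 to 1137 CPM in normal glucose, mostly from KRT8 and KRT18, keratins which passed the test as higher. BEST1, a chloride channel of this epithelium, passed as lower (log2 change -2.2, edgeR adjusted p = 0.0113). MITF, PMEL and SERPINF1 were lower in all high glucose libraries without passing. RDH5, in a locus shared with BLOC1S1 and AC009779, was higher in all of them without passing (log2 change 0.38, edgeR adjusted p = 0.0715). Of 10 leukocyte markers, AIF1, CD3E, MS4A1 and TYROBP were at 0 in all libraries, and the 9 with a locus of their own summed to 2.02 to 2.67 CPM in high glucose and 1.79 to 2.87 CPM in normal glucose. The 8 endothelial markers summed to 3.76 to 4.94 CPM in high glucose and 11.68 to 19.45 CPM in normal glucose, and the 7 fibroblast markers with a locus of their own to 200.1 to 206.1 CPM in high glucose and 148.8 to 232.7 CPM in normal glucose. Single markers went apart within these sums: KDR was called lower (fold 0.188; edgeR adjusted p = 0.00478), as were COL1A1 (0.178; 0.0302) and TWIST1 (0.539; 0.0203), while PDGFRB was called higher (1.6; 0.00572). What part these differences have in the results below was not tested.

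CXCL16 and ICAM1 were about doubled in high glucose, at a fold of 2.02 and 1.96, and passed the test. CCL2 differed more between normal glucose libraries than between the groups. The 4 neutrophil-attracting ligands, CXCL12 and CCL2 did not pass, and CX3CL1 was hardly counted at all. A locus is referred to as called when the Benjamini-Hochberg adjusted p of edgeR's quasi-likelihood test, over all 25025 tested loci, is under 0.05. Of the 9 genes, 8 passed the filter on low counts, and 2 of these (25%) were called, against 19.6% of all tested loci and 25.5% of 13786 tested loci with a protein-coding transcript. The share called is therefore close to the background. Of the 8, 2 were called higher, against 9.75% of all tested loci and 13.1% of those with a protein-coding transcript, and 0 were called lower by edgeR, against 9.86% and 12.4%. DESeq2, which called 7050 loci, also called CXCL12 lower and CXCL1 higher (DESeq2 adjusted p = 0.0169 and 0.0153). Neither was called by edgeR (edgeR adjusted p = 0.0657 and 0.0692). For 4 of the 8 the groups were fully separate (CXCL1, CXCL12, CXCL16 and ICAM1), against 42.3% of tested loci and 49.5% of those with a protein-coding transcript. In 3 of these 4 high glucose was the higher group, against 21.8% and 25.9% of loci. The median log2 change of the 8 was 0.05, against 0.01 over loci with a protein-coding transcript. In bulk RNA, fewer cells that express a gene and less RNA per cell cannot be told apart.

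**Figure D1:**
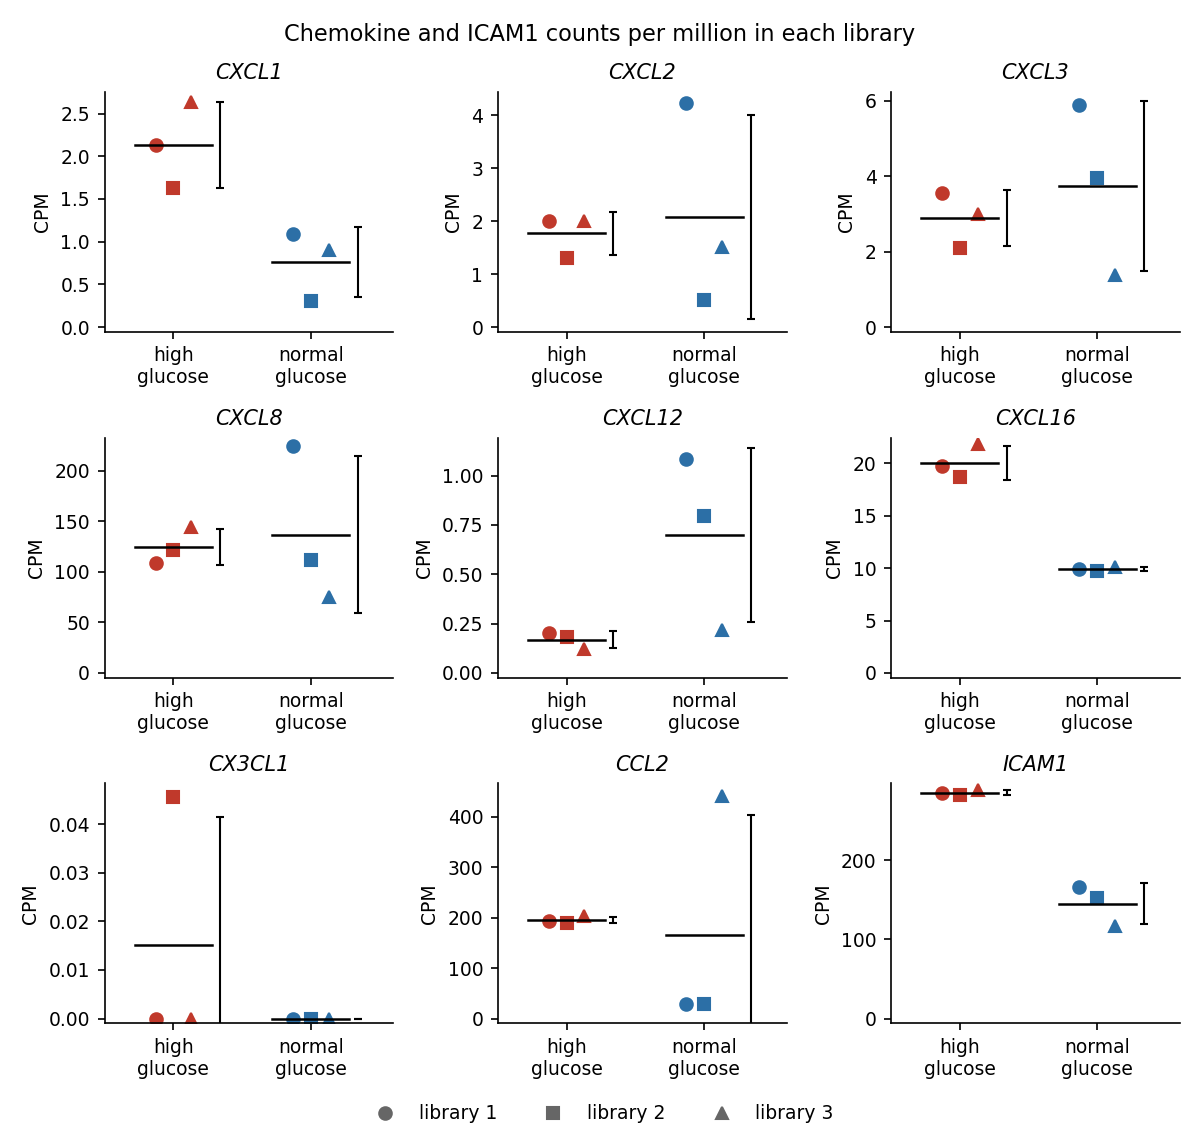
CPM (TMM-scaled) of the 9 genes in each library, high glucose in red and normal glucose in blue; symbols mark library 1, 2 and 3, lines the means and bars the SD (cut off at 0). ICAM1 and CXCL16 separate the groups with little spread, while CCL2 stands at 441 CPM in normal glucose 3 and at 29.4 and 29.5 CPM in the other normal glucose libraries.

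ICAM1 had 285, 282 and 289 CPM in high glucose libraries 1, 2 and 3, against 167, 152 and 117 CPM in normal glucose libraries 1, 2 and 3. All 3 high glucose libraries lay above all normal glucose libraries, and normal glucose 3 was the lowest of the 6. The log2 change was 0.97 (SE 0.143; edgeR adjusted p = 0.00703). It lay between 0.84 (without normal glucose 3) and 1.08 (without normal glucose 1) when 1 library was left out, with an adjusted p of at most 0.0383. The coefficient of variation was 1.12% among the high glucose libraries and 17.5% among the normal glucose libraries. The ICAM1 locus lies on chromosome 19 at 10271093 to 10285583, on the plus strand. A long non-coding locus on the other strand (AC011511) overlaps it by 14016 bases, and as the counting is not stated to use strand, reads of both cannot be told apart. That locus held at most 0.273 CPM. RefSeq ends ICAM1 at 10286615 and places the LIMASI gene across part of the ICAM1 locus, from 10260010 to 10283450. Reads of LIMASI there cannot be told apart from those of ICAM1.

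The 5 loci whose log2 CPM followed ICAM1 most closely over the 6 libraries, among 9264 named loci of at least 5 CPM, were SERPINE3 (Pearson r = 0.9967), MYO1D (0.9965), SEZ6L2 (0.9963), SAMD9L (0.996) and SLC27A2 (0.996). All 5 were lowest in normal glucose 3, as ICAM1 was. They are given as a description over 6 libraries that share the group difference, and 285 loci had an r above 0.95. SERPINE3, a serpin family member, held 12.8, 12.6 and 14.0 CPM in high glucose and 5.64, 5.27 and 3.8 CPM in normal glucose.

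CXCL16, which is both a surface scavenger receptor and, once shed, a ligand of CXCR6, had 19.7, 18.7 and 21.9 CPM in high glucose 1, 2 and 3, against 9.95, 9.73 and 10.1 CPM in normal glucose 1, 2 and 3. The groups did not overlap, and here normal glucose 3 did not stand apart from the other normal glucose libraries. The log2 change was 1.02 (SE 0.13; edgeR adjusted p = 0.0049). With 1 library left out it was 0.95 to 1.07, with an adjusted p of at most 0.0331. The coefficient of variation was 8.09% in high glucose and 1.99% in normal glucose, so CXCL16 was the only one of the 8 tested genes that varied more in high glucose. The CXCL16 locus lies on chromosome 17 at 4733531 to 4739928, on the minus strand, and overlaps the loci of MED11 by 77 and of ZMYND15 by 96 bases, which held at most 7.62 and 1.11 CPM.

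CX3CL1, the other membrane-bound ligand, was counted in 1 library only: 4 counts in high glucose 2 (0.0456 CPM), and 0 in the other 5. Counts of 4 were unusually frequent in the table (the value 4 occurred 9555 times, the value 3 occurred 4210 times and the value 5 occurred 2659 times). A single fragment may thus stand for about 4 counts, and a count of 0 was taken to allow up to 3 fragments, or 12 counts (0.135 to 0.146 CPM, for counting error only). CX3CL1 was below that level in all 6 libraries and was not tested, so a difference was not detectable at this depth. Both enzymes that release the heads of CXCL16 and CX3CL1, chosen here for that role, were present. ADAM10 had 210.2, 209.8 and 199 CPM in high glucose and 155, 154 and 211 CPM in normal glucose (log2 change 0.25; edgeR adjusted p = 0.268). ADAM17 had 77.4, 83.4 and 77.8 CPM in high glucose and 121, 101 and 71.0 CPM in normal glucose (log2 change -0.29; edgeR adjusted p = 0.323). For both, normal glucose 3 lay nearer to the high glucose libraries than normal glucose 1 and 2 did.

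CCL2, the main monocyte attractant, had 194, 190.0 and 202 CPM in high glucose 1, 2 and 3, against 29.4, 29.5 and 441 CPM in normal glucose 1, 2 and 3. The high glucose libraries had a coefficient of variation of 3.22%. Normal glucose 1 and 2 were nearly equal and below them, and normal glucose 3 was above all other libraries, 14.9-fold over the mean of normal glucose 1 and 2 and 2.25-fold over the high glucose mean. The means were 195.5 ± 6.29 CPM in high glucose and 166.5 ± 237 CPM in normal glucose (SD, n = 3 each), and CCL2 was not called (log2 change 0.23, SE 0.986; edgeR adjusted p = 0.895). Without normal glucose 3 the log2 change was 2.73 (edgeR adjusted p = 7.26e-05), a fold of 6.63 between the high glucose mean and the mean of normal glucose 1 and 2; 28.7% of 26531 loci were called in that fit. Without normal glucose 1 or 2 it was -0.27 in each case (edgeR adjusted p = 0.881 and 0.884). DESeq2 gave no adjusted p for CCL2.

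Few loci behaved as CCL2 did within normal glucose. Of 11663 tested loci with a mean of at least 5 CPM, 3 (0.0257%) were at least 10-fold higher in normal glucose 3 than in both other normal glucose libraries, CCL2 among them, and 8 were at least 10-fold lower. The coefficient of variation of CCL2 in normal glucose, 143%, was reached by 11 of these loci, itself included. The CCL2 locus lies on chromosome 17 at 34255218 to 34257203, on the plus strand. Of its relatives from the same gene cluster, CCL7 and CCL8 were at 0 in all libraries, and CCL11 had 12 counts in normal glucose 3 and 0 in the other 5. In the same library ICAM1, CXCL8 and CXCL3 were at their lowest of all 6, so normal glucose 3 was not high in these genes at large.

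**Figure D2:**
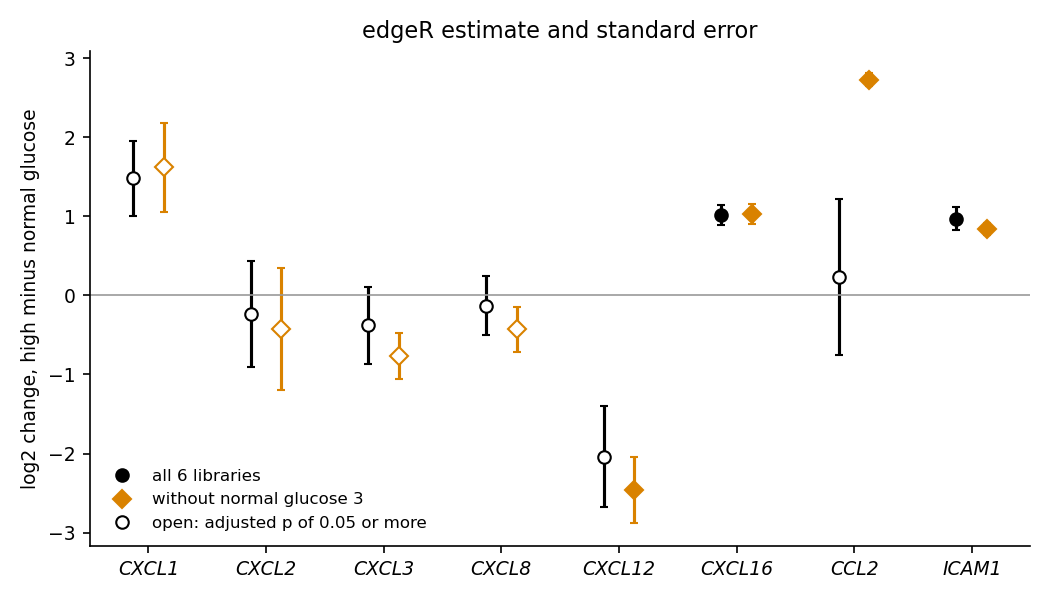
Log2 change of the 8 tested genes (edgeR estimate with its SE), high minus normal glucose, with all 6 libraries (black) and without normal glucose 3 (orange); filled symbols have an adjusted p under 0.05. CCL2 is at 0.23 with all libraries and at 2.73 without that one, CXCL12 is called at -2.46 without it, while CXCL16 and ICAM1 are called both ways.

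CXCL8, the principal neutrophil attractant of this group, had 109, 122 and 144 CPM in high glucose 1, 2 and 3, against 224, 111 and 74.8 CPM in normal glucose 1, 2 and 3. The normal glucose libraries spread on either side of the high glucose libraries, with a coefficient of variation of 57.0%, against 14.3% in high glucose. The log2 change was -0.13 (SE 0.371; edgeR adjusted p = 0.837), and its sign depended on the libraries used: it was 0.42 without normal glucose 1 and -0.43 without normal glucose 3, with adjusted p of 0.248 and 0.329. The locus of CXCL8 in the table reaches from 73707737 to 73743716 on chromosome 4, plus strand, although RefSeq places the gene at 73740569 to 73743716. The upstream part overlaps the non-coding UMLILO locus by 4226 bases, which held at most 0.0448 CPM. RefSeq also places the non-coding INKILN gene across part of it, from 73700355 to 73721070, and reads of INKILN there cannot be told apart from those of CXCL8.

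CXCL1 had 2.13, 1.63 and 2.63 CPM in high glucose 1, 2 and 3, against 1.09, 0.303 and 0.902 CPM in normal glucose 1, 2 and 3. The groups did not overlap, but CXCL1 was not called (log2 change 1.48, SE 0.473; edgeR adjusted p = 0.0692). It was called by DESeq2 (adjusted p = 0.0153) and by limma on log2(FPKM + 1) (log2 change 0.67; limma adjusted p = 0.0384), and by none of the fits that left out 1 library (0.0788 to 0.194). Its counts were low, 26 to 217 per library.

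CXCL2 had 2.01, 1.31 and 2.02 CPM in high glucose, against 4.24, 0.513 and 1.52 CPM in normal glucose 1, 2 and 3 (log2 change -0.23, SE 0.67; edgeR adjusted p = 0.841). CXCL3 had 3.56, 2.10 and 2.99 CPM in high glucose, against 5.89, 3.95 and 1.40 CPM in normal glucose 1, 2 and 3 (log2 change -0.38, SE 0.493; edgeR adjusted p = 0.637). For both genes normal glucose 1 was the highest library of all, and the high glucose values lay inside the range of the normal glucose libraries. Without normal glucose 1 the log2 change of CXCL2 was 0.81 and that of CXCL3 0.11, with edgeR adjusted p of 0.35 and 0.911. CXCL1, CXCL2 and CXCL3 are close paralogs, and no source used here says how reads matching more than 1 of them were divided, so their separate values are uncertain.

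The part that CXCL1 took in the sum of the 3 paralogs is given as a description, chosen after the values were seen. An exact permutation test of the shares gave p = 0.1. That is the smallest value 3 against 3 libraries can give, so the test cannot decide and nothing is drawn from it. The summed CPM of CXCL1, CXCL2 and CXCL3 was 7.70, 5.04 and 7.64 in high glucose 1, 2 and 3, against 11.2, 4.77 and 3.81 in normal glucose 1, 2 and 3, so the sums overlapped. CXCL1 made up 27.7% (95% Wilson interval 21.7% to 35%), 32.4% (24.7% to 41.9%) and 34.5% (27.4% to 42.1%) of the counts in high glucose 1, 2 and 3. It made up 9.68% (6.73% to 14.3%), 6.36% (2.72% to 12.2%) and 23.7% (16.0% to 34.5%) in normal glucose 1, 2 and 3. The intervals take 4 counts as 1 fragment and cover counting error only. The shares of the libraries did not overlap between the groups (31.5% ± 3.48 in high glucose and 13.2% ± 9.2 in normal glucose, SD, n = 3 each), but the interval of normal glucose 3 overlapped those of the high glucose libraries.

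**Figure D3:**
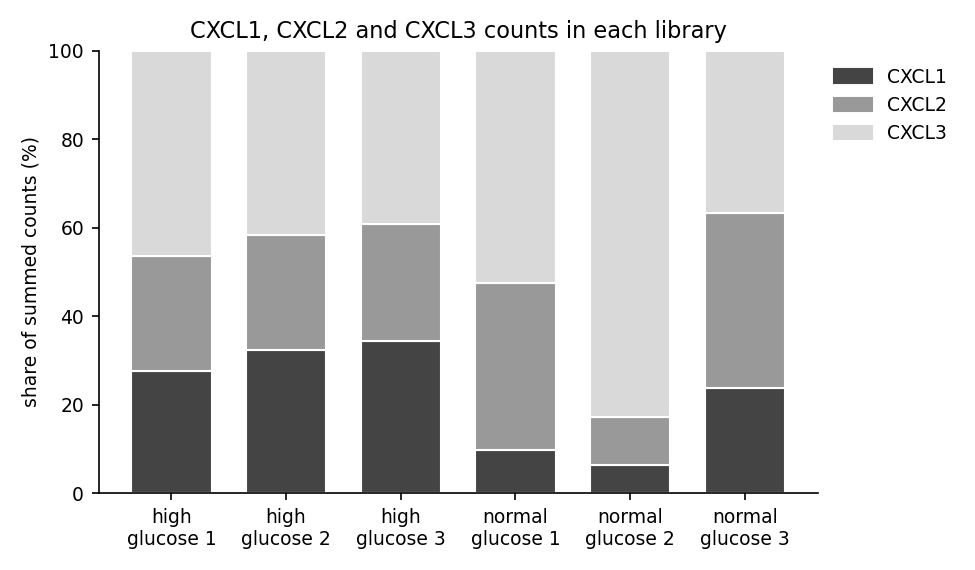
Shares of CXCL1, CXCL2 and CXCL3 in their summed counts, in percent, for each library, high glucose on the left. The dark CXCL1 segment is 27.7% to 34.5% in the high glucose libraries and 6.36% to 23.7% in the normal glucose libraries.

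CXCL12 had 0.202, 0.182 and 0.121 CPM in high glucose 1, 2 and 3, against 1.09, 0.792 and 0.217 CPM in normal glucose 1, 2 and 3. These values rest on 18, 16 and 10 counts in high glucose and on 94, 68 and 18 counts in normal glucose, so the high glucose values are near the level that a count of 0 allows, and normal glucose 3 lay just above them. CXCL12 was not called (log2 change -2.04, SE 0.641; edgeR adjusted p = 0.0657). It was called without normal glucose 3 (log2 change -2.46; edgeR adjusted p = 0.00843) and by DESeq2 (adjusted p = 0.0169). The CXCL12 locus lies on chromosome 10 at 44370165 to 44385092, on the minus strand.

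Between genes, levels were compared as FPKM, which are scaled to length. In high glucose the order was CCL2 (81.1 ± 2.51 FPKM), ICAM1 (68.3 ± 0.897), CXCL8 (43.1 ± 5.87) and CXCL16 (5.91 ± 0.467), with no overlap between neighbours in this order over the 3 libraries. CXCL1 (1.28 ± 0.301 FPKM), CXCL3 (1.07 ± 0.283) and CXCL2 (1.04 ± 0.244) followed and overlapped each other, and CXCL12 was at 0.0217 ± 0.00576 FPKM. In normal glucose CCL2 (66.9 ± 95.3 FPKM), CXCL8 (46.0 ± 26.3) and ICAM1 (33.8 ± 6.03) each overlapped the next in order, and CXCL16 (2.84 ± 0.0471 FPKM) lay apart below them. CXCL3 (1.34 ± 0.82 FPKM), CXCL2 (1.19 ± 1.11) and CXCL1 (0.442 ± 0.239) overlapped again. By the means alone, CXCL1 came first of these 3 in high glucose and last in normal glucose. Single libraries departed from this order. CXCL3 was above CXCL1 in high glucose 1 (1.33 against 1.29 FPKM) and below it in normal glucose 3 (0.49 against 0.525 FPKM). Of the 8 tested genes, 7 had the lower coefficient of variation in high glucose, and so had 76.9% of the 11663 loci with at least 5 CPM, whose median was 6.85% in high glucose and 15.5% in normal glucose.

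CXCL8, CXCL1, CXCL3 and CXCL2 lie in 1 cluster of CXC ligand genes on chromosome 4, with starts 129, 298 and 359 kb beyond that of CXCL8. Between them lie CXCL6, PF4, PPBP and CXCL5, which code for further ELR ligands and for platelet factor 4. PF4 was at 0 in all libraries. CXCL6 had 12 counts in high glucose 1 and 11 in normal glucose 1, CXCL5 had 8 and PPBP 4 counts in high glucose 1, and all were at 0 in the other libraries. Neighbouring genes of the cluster were thus counted at very unequal levels, from 43.1 FPKM for CXCL8 in high glucose to 0 for PF4.

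**Figure D4:**
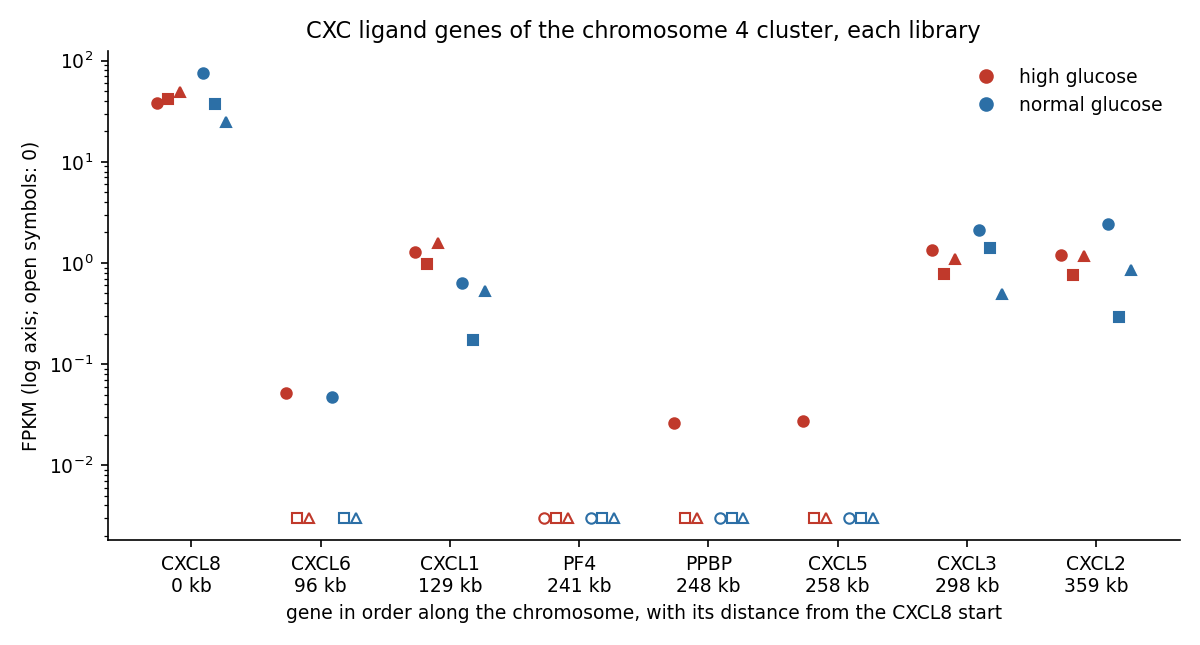
FPKM on a log axis of 8 CXC ligand genes of chromosome 4 in gene order, with the distance from the CXCL8 start under each name; red is high glucose, blue is normal glucose, symbols mark library 1, 2 and 3, and open symbols at the bottom are values of 0. CXCL8 lies above all others in every library, and the 4 genes CXCL6, PF4, PPBP and CXCL5 are at 0 in most.

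Promoter sequence was looked at because NF-kB, the transcription factor of inflammatory signalling, is known to drive several of these genes from sites close to their starts. RefSeq promoters (GRCh38.p14) matched 6 of the 9 genes, CXCL1, CXCL2, CXCL3, CXCL8, CXCL12 and ICAM1, and the 250 bases before the start were searched on both strands. The 9-letter sequence GGAANTTCC, which reads the same on both strands and was chosen with these sequences in view, was present in all of them but CXCL12, and in 0.826% of all 35116 promoters. The stretch around it is shown for the 5 genes, with those 9 bases in capitals, to compare the paralogs CXCL1, CXCL2 and CXCL3 with CXCL8 and ICAM1. The stretches are chr4:73869275-73869353 (plus strand) for CXCL1, chr4:74099234-74099312 (minus strand) for CXCL2, chr4:74038729-74038807 (minus strand) for CXCL3, chr4:73740438-73740516 (plus strand) for CXCL8 and chr19:10270894-10270972 (plus strand) for ICAM1.
CXCL1: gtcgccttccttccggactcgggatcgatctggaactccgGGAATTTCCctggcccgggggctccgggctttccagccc
CXCL2: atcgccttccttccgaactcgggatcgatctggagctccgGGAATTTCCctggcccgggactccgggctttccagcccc
CXCL3: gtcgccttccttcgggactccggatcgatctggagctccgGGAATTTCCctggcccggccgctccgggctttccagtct
CXCL8: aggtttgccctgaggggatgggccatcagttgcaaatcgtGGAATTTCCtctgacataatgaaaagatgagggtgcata
ICAM1: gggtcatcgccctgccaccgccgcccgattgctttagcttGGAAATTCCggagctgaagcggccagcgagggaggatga

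The match began 78 bases before the start in CXCL1 and CXCL3, 77 in CXCL2, 91 in CXCL8 and 186 in ICAM1. The longer NF-kB consensus of 10 letters overlapped it in CXCL1, CXCL2 and CXCL3 and was in 5.21% of all promoters. The AP-1 sequence TGACTCA was in the CXCL8 promoter, 137 bases before the start, and in 4.2% of all promoters. TATAAA was in the promoters of CXCL8 and ICAM1 and in 10.7% of all. In pairwise alignments of the 250 bases, CXCL1 and CXCL3 were 81.4% identical, CXCL2 and CXCL3 73.3%, and CXCL1 and CXCL2 68.0%, against 42.8% for CXCL1 and CXCL8. Of the 5 genes that hold this pattern, only ICAM1 was called, and differences between their changes were not tested. A match is a description of the letters and shows no binding.

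Most other chemokine ligands were not measurable. Of 35, 4 were tested and 20 were at 0 in all libraries; 1 of the 4 rose and 1 fell, too few to set against the 19.6% called of all tested loci. CCL26, the eosinophil attractant eotaxin-3, rose to 1.45, 1.61 and 1.55 CPM in high glucose, against 0.635, 0.303 and 0.842 CPM in normal glucose (log2 change 1.37; edgeR adjusted p = 0.0497). CCL27, a skin chemokine in a locus shared with AL162231, fell to 0.762, 0.832 and 1.19 CPM, against 2.09, 1.94 and 2.04 CPM in normal glucose (log2 change -1.12; edgeR adjusted p = 0.0269). With 1 library left out, CCL26 was called only without normal glucose 3 (adjusted p = 0.0216, otherwise 0.0718 to 0.143). CCL27 was called without normal glucose 3 (0.0317) and, just under the threshold, without high glucose 3, and was not called in the other 4 fits (0.0629 to 0.107). CCL20, an attractant of CCR6-bearing cells, and CXCL14, an epithelial chemokine, were not called (edgeR adjusted p = 0.171 and 0.12). All 4 tested ligands were called without normal glucose 3, against 0, 0 and 1 without high glucose 1, 2 and 3 and 0 without normal glucose 1 or 2. Calls over all loci moved too, with 7615 without normal glucose 3 and 4906 with all libraries. They numbered 1631, 1421 and 1507 without high glucose 1, 2 and 3, and 2846 and 2727 without normal glucose 1 and 2.

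The receptors of the neutrophil-attracting ligands, of CCL2 and of CX3CL1 were near or at 0, and those of CXCL12 and CXCL16 were counted in every library. CXCR2 was at 0 in all libraries, and CXCR1, CCR2 and CX3CR1 were below 0.135 CPM wherever they were counted. CXCR4, the receptor of CXCL12, had 19.9, 18.8 and 22.3 CPM in high glucose, against 8.02, 9.68 and 23.3 CPM in normal glucose 1, 2 and 3, the last value above all others as in CCL2 (log2 change 0.57; edgeR adjusted p = 0.346). ACKR3, which removes CXCL12, averaged 38.5 ± 3.98 CPM in high glucose and 44.9 ± 6.83 CPM in normal glucose (SD, n = 3 each; edgeR adjusted p = 0.342). CXCR6, the receptor of CXCL16, held 1.59, 1.93 and 1.64 CPM in high glucose, against 1.09, 1.18 and 1.11 CPM in normal glucose (log2 change 0.61; edgeR adjusted p = 0.101). Of 23 receptors 11 were tested, and 1 rose (9.09% called, against 19.6% of all tested loci): CCRL2, an atypical receptor that binds chemerin, at 2.69, 2.14 and 3.05 CPM in high glucose and 1.10, 0.653 and 1.53 CPM in normal glucose (log2 change 1.26; edgeR adjusted p = 0.0444). CCRL2 was not called without any library other than normal glucose 3 (adjusted p of 0.0844 to 0.14). The median log2 change was 0.52. The tested CCR6, ACKR1 and ACKR2 lie in loci shared with other genes, so their counts need not come from the receptors. CCR1 had only 0 to 19 counts per library.

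Of 24 genes of leukocyte adhesion and partners of ICAM1, 17 were tested. Leaving out ITGAM, which passed the filter on low counts only through high glucose, 6 of 16 rose and 1 fell (43.8% called, against 19.6% of all tested loci and 25.5% of those with a protein-coding transcript), with a median log2 change of 0.26. F11R, the junctional adhesion molecule A, in a locus shared with TSTD1, rose by 1.41 on the log2 scale (edgeR adjusted p = 0.015), and MSN, the moesin that ties ICAM1 to the cytoskeleton, by 0.73 (edgeR adjusted p = 0.0363). Its relative EZR, named for the same role after its values were seen, had 945, 978 and 716 CPM in high glucose and 335, 329 and 632 CPM in normal glucose (edgeR adjusted p = 0.0418). RDX, another relative also named after its values were seen, was not called (log2 change 0.06, edgeR adjusted p = 0.751). It had 143, 167 and 146 CPM in high glucose and 137, 148 and 153 CPM in normal glucose. ALCAM, an adhesion molecule that binds CD6, fell by 0.46 on the log2 scale (edgeR adjusted p = 0.019). VCAM1, the partner of the integrin VLA-4, held 0.148 to 0.751 CPM in high glucose and 0.0466 to 0.52 CPM in normal glucose (edgeR adjusted p = 0.787). Of the integrin chains of LFA-1 and Mac-1, ITGAL and ITGB2 were not tested. ITGAM had 0.303, 0.353 and 0.291 CPM in high glucose and 0, 0.0466 and 0 CPM in normal glucose, where it was below the level that a count of 0 allows. With ITGAM, the number called was 8 with all libraries, 1, 1 and 2 without high glucose 1, 2 and 3 and 2, 3 and 7 without normal glucose 1, 2 and 3. Calls over all loci in these fits, given above for the other ligands, also depended on the library left out. MSN and EZR were called only without normal glucose 3 (0.00108 and 0.00173, against 0.0787 to 0.132), F11R without high glucose 3 and normal glucose 3 (0.022 and 0.0131, otherwise 0.0511 to 0.0625), and ALCAM not without high glucose 1, 2 or 3 (0.0779, 0.0865 and 0.0922).

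Among 20 tested genes of chemokine shedding, trimming and presentation on heparan sulfate, 6 rose and 1 fell (35% called, against 19.6% of all tested loci and 25.5% of those with a protein-coding transcript), with a median log2 change of 0.24. SDC4, a heparan sulfate proteoglycan of the cell surface, rose to 398, 411 and 445 CPM in high glucose, against 142, 107 and 135 CPM in normal glucose (log2 change 1.71; edgeR adjusted p = 0.00165). SDC3, another syndecan, rose by 1.04 and MMP14, a membrane protease that can trim chemokines, by 0.84 on the log2 scale (edgeR adjusted p = 0.00258 and 0.00618). These 3 were called whichever library was left out. The gene that fell was GPC4, also a heparan sulfate proteoglycan (log2 change -0.94, edgeR adjusted p = 0.0325). GPC4 was called in none of the fits that left out 1 library (0.0538 to 0.0791). The syndecans SDC1 and SDC2, named after their values were seen, were not called (log2 change -0.03 and 0.64, edgeR adjusted p = 0.926 and 0.105). MMP3, a secreted protease, rose by 1.71 (edgeR adjusted p = 0.0138) but missed the threshold when high glucose 1, 2 or 3 was left out (0.0563, 0.0502 and 0.0599). DPP4, which inactivates CXCL12 and was chosen for that role, held 112 to 116 CPM in high glucose and 116 to 150 CPM in normal glucose (edgeR adjusted p = 0.227). The number called was 3, 3 and 5 without high glucose 1, 2 and 3 and 4, 4 and 9 without normal glucose 1, 2 and 3. Over all loci it was 1421 to 1631 without a high glucose library and 2846, 2727 and 7615 without normal glucose 1, 2 and 3.

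The NF-kB genes and the signals that feed them moved both ways. Of 33 tested, 7 rose and 5 fell (36.4% called, against 19.6% of all tested loci and 25.5% of those with a protein-coding transcript), with a median log2 change of -0.01. TNIP1, an inhibitor of NF-kB signalling, rose to 227, 209 and 215 CPM in high glucose, against 80.8, 77.1 and 91.7 CPM in normal glucose (log2 change 1.38; edgeR adjusted p = 0.00164). LIF, an IL-6 family cytokine, JUN, a subunit of AP-1, and TLR3, the receptor of double-stranded RNA, rose by 1.62, 0.77 and 1.15 on the log2 scale (edgeR adjusted p = 0.00272, 0.00532 and 0.00734). TLR4, the receptor of lipopolysaccharide, in a locus shared with AL160272, fell by 1.03 (edgeR adjusted p = 0.00835). These 5 were called whichever library was left out. NFKBIE, another inhibitor, rose by 0.73 (edgeR adjusted p = 0.0109, and 0.0551 without high glucose 1). The inhibitors did not move as 1 class: NFKBIB, named after its values were seen, was called lower (log2 change -0.97, edgeR adjusted p = 0.0181). It missed the threshold without high glucose 1 and 3 (0.0785 and 0.0807). NFKBIA, also named after its values were seen, was not called (log2 change -0.25, edgeR adjusted p = 0.638). Neither NF-kB subunit named here was called, NFKB1 at -0.11 on the log2 scale (edgeR adjusted p = 0.476) and RELA at -0.01 (0.986). TNF had a count in normal glucose 3 only. IL1B, a cytokine that induces CXCL8, CCL2 and ICAM1 in many cells, had 5.93, 5.95 and 5.61 CPM in high glucose, against 1.62, 0.536 and 4.28 CPM in normal glucose, and was not called (log2 change 1.44; edgeR adjusted p = 0.159). The number called was 5, 7 and 6 without high glucose 1, 2 and 3 and 9, 8 and 17 without normal glucose 1, 2 and 3. Over all loci it was 1421 to 1631 without a high glucose library and 2846, 2727 and 7615 without normal glucose 1, 2 and 3.

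The messages of CXCL1, CXCL2, CXCL3, CXCL8 and CCL2 are short-lived, and AU-rich elements in them are bound by decay factors. Of 18 genes of this decay and its control, not all of which bind AU-rich elements, 3 rose and 1 fell, with a median log2 change of 0.16. The 22.2% called lies between the 19.6% of all tested loci and the 25.5% of those with a protein-coding transcript, so the count is at the background. ZFP36L1, which binds AU-rich elements and promotes decay, rose to 413, 463 and 395 CPM in high glucose, against 123, 121 and 203 CPM in normal glucose (log2 change 1.51; edgeR adjusted p = 0.00673; at most 0.0375 with 1 library left out). ZC3H12A, an endonuclease that cuts inflammatory messages, in a locus with MIR6732, rose by 1.17 (edgeR adjusted p = 0.0183), and ZFP36L2, a relative of ZFP36L1, by 0.47 (edgeR adjusted p = 0.0399). CNOT1, the scaffold of the deadenylase complex, fell by 0.39 on the log2 scale (edgeR adjusted p = 0.0377). ZC3H12A, ZFP36L2 and CNOT1 were called without normal glucose 3 and not when any other library was left out (adjusted p of 0.0552 to 0.15), and the number called was 1 without each of the other 5 libraries and 8 without normal glucose 3. Calls over all loci ranged from 1421 to 2846 without each of those 5 libraries and reached 7615 without normal glucose 3.

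**Figure D5:**
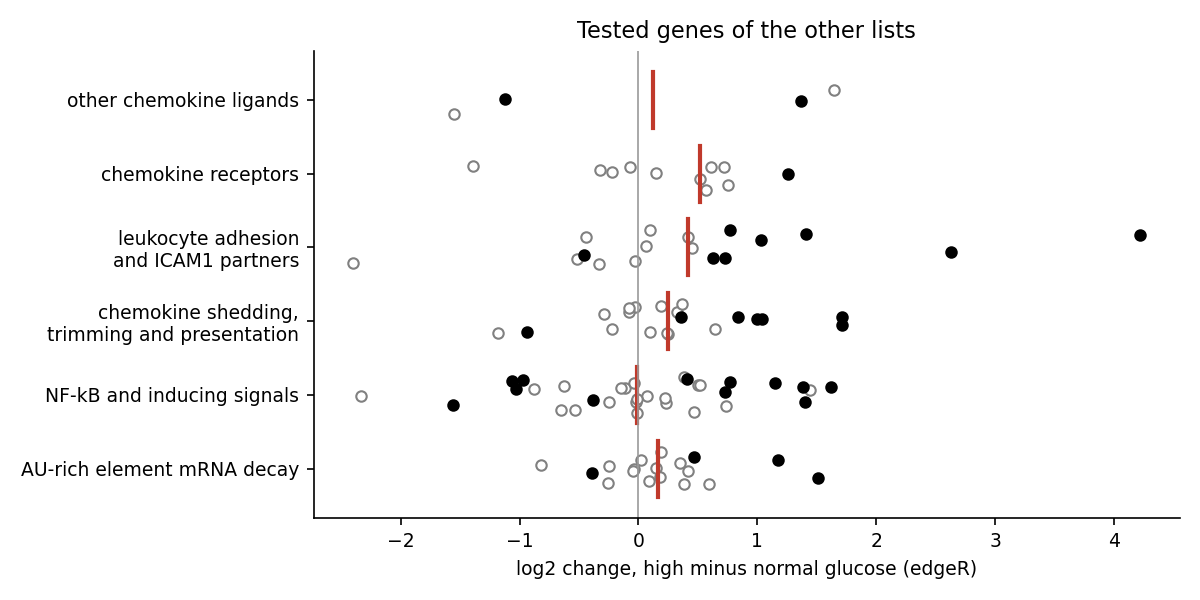
Log2 change (edgeR, high minus normal glucose) of the tested genes of 6 lists; filled points have an adjusted p under 0.05, open points do not, and the red line is the list's median. ITGAM, at 4.22, passed the filter on low counts only through high glucose and is left out of the numbers that follow. The filled points of the adhesion list and of the shedding and presentation list lie mostly to the right of 0 (6 of 7 in each). Those of the NF-kB list lie on both sides (7 and 5). Over all tested loci, 2439 of the 4906 called were higher in high glucose.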

How the data were processed

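Total RNA of ARPE-19 cells was sequenced as read pairs (3 libraries per group), per the labels' protocols, which name oligo-dT beads but also a fraction without poly(A). The authors deposited 1 table of 60835 loci with counts, whole numbers that were left unscaled per the file headers and their sums, and FPKM values, scaled by the authors to length and library size, with 0.0001 where the count is 0. Bowtie 0.12.2 and a mouse build, mm8, are listed per the submitters' processing notes. The identifiers are human, however, and 99.84% of 37620 symbols overlapped their GRCh38.p14 position. Aligner settings, counting tool and strand are not given in the sources used here. All 37 mitochondrial loci are at 0 and were left out. Every per-sample column could be assigned to a library.

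Loci were filtered with filterByExpr (25025 kept) and tested with edgeR 4.0.16 in R 4.3.3 (TMM, glmQLFit, glmQLFTest, 2-sided, group as the only term). SE is the size of the log2 change divided by the square root of F. Alternatives were DESeq2 1.42.0, limma 3.58.1 on log2 FPKM, other scalings and filters, counts divided by 4, a replicate block and the omission of each library. The steps were tested on simulated data. The genes and lists were chosen with earlier results of these data known. Named list genes are the called ones with the smallest adjusted p (up to 6 a list, not all described), TXNIP, the 5 loci most like ICAM1, and genes marked as chosen for a role or after their values were seen; CCL20, CXCL14, CXCR4, ACKR3, CXCR6, VCAM1, IL1B, NFKB1, RELA, TNF and the integrin chains are further list members chosen for their role. Protein sequences were not used here. The values of 1 gene of the adhesion list are not reported here.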

Additional observations from a re-analysis of the deposited data

How the results depend on the processing

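ICAM1 and CXCL16 were called with the same direction under all 16 alternatives. The number of genes called among the 9 was 2, with 3 on log2(FPKM + 1) and 4 with DESeq2, and 2 to 4 over omitted libraries. The fits that left out 1 library gave log2 changes of -0.27 to 2.73 for CCL2, -2.46 to -1.57 for CXCL12, -0.69 to 0.81 for CXCL2, -0.77 to 0.11 for CXCL3, -0.43 to 0.42 for CXCL8 and 1.10 to 1.82 for CXCL1. CXCL2 and CXCL8 turned positive with limma on log2(FPKM + 1) (0.01 and 0.05), on log2(FPKM + 0.1) (0.19 and 0.05) and with a replicate block (0.21 and 0.01). CCL2 was at 1.41 and 1.46 in these limma fits and at 1.59 with the block, without being called, and CXCL12 at -0.09 and -0.61 in the limma fits. CXCL1 was called with DESeq2 (1.47) and on log2(FPKM + 1) (0.67), and CXCL12 with DESeq2 (-2.06). DESeq2 gave CCL2 a log2 change but no adjusted p. CXCL12 was not kept with counts divided by 4 or a filter at 1 CPM in 3 libraries. Each gene had 1 row, so the sum of rows was not run.

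Loci called numbered 4906, 2545 with a replicate block and 1421 to 7615 over omitted libraries, and 7050 with DESeq2. Called list members over omitted libraries were 0 to 4 for other ligands, 0 to 2 for receptors, 1 to 7 for adhesion, 3 to 9 for shedding and presentation, 5 to 17 for NF-kB and 1 to 8 for AU-rich decay. Without a filter they were 1 for other ligands, 0 for receptors and 2 for AU-rich decay, with a replicate block 0 for other ligands, 1 for adhesion and 2 for AU-rich decay, and with RLE size factors 1 for other ligands. The cause of these changes was not tested. Same-numbered libraries did not deviate together (r = -0.017, -0.000759 and -0.00942), so no pairing was assumed.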

Other observations

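The other loci that were at least 10-fold higher in normal glucose 3 than in normal glucose 1 and 2 were KCTD11 and FAM111B. KCTD11, an adaptor of a ubiquitin ligase, had 48.2, 50.5 and 0.813 CPM in high glucose 1, 2 and 3, against 0.647, 0.886 and 20.6 CPM in normal glucose 1, 2 and 3, so it was high in high glucose 1 and 2 and normal glucose 3 and low in the other 3 libraries. FAM111B, a protease-like gene, had 6.38, 8.21 and 7.37 CPM in high glucose, against 1.92, 1.71 and 24.0 CPM in normal glucose. Like CCL2, FAM111B had close values in the high glucose libraries, lower ones in normal glucose 1 and 2, and its highest in normal glucose 3.

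CXCL14 had 4.25, 4.39 and 4.10 CPM in high glucose, against 0.832, 0.396 and 2.85 CPM in normal glucose 1, 2 and 3, with no overlap between the groups and normal glucose 3 nearest to high glucose. CCL20 went the other way within normal glucose, with 1.44, 0.786 and 0.959 CPM in high glucose and 4.18, 4.58 and 0.541 CPM in normal glucose 1, 2 and 3.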
